A study of Mus musculus with 12 samples.

Results

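Activity-dependent genes of the olfactory epithelium were followed in mice that lack the J element and in their wild-type littermates. They are 7 genes, *Fos*, *Fosb*, *Junb*, *Egr1*, *Nr4a1*, *Arc* and *S100a5*, chosen by name and each represented by 1 probe set, of 21789 probe sets with a single gene symbol and 35556 probe sets in all. The first 6 are immediate early genes. Such genes wait silent or nearly so in a resting cell and are transcribed within minutes when calcium, cAMP or growth factor signals reach transcription factors that the cell already holds, without new protein synthesis. *Fos*, *Fosb* and *Junb* encode subunits of the AP-1 transcription factor, *Egr1* a zinc finger factor, *Nr4a1* an orphan nuclear receptor and *Arc* a cytoskeleton-associated protein of synapses. *S100a5* encodes a small calcium-binding protein that is abundant in mature olfactory sensory neurons (OSNs), and its transcript is known to depend on odour-driven activity.

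The J element is an enhancer near the class I odorant receptor (OR) genes, and the study asked how its deletion changes the receptor transcripts of OSNs. RNA of the whole main olfactory epithelium was hybridised to 1 Affymetrix Mouse Gene 1.0 ST array per mouse, 6 ΔJ and 6 wild-type, and each level below is a deposited log2 signal minus the 75th percentile of its array. The ΔJ mice were homozygous for a CRISPR-Cas9 deletion of the J element, all descend from 1 founder made in B6C3F1 eggs, and the line was backcrossed to C57BL/6NCrSlc, with heterozygotes of the second backcross generation named for the array experiment. The labels give C57BL/6 for both genotypes. The wild-type mice were 4 at P30 (postnatal day 30; 3 females and 1 male) and 2 at P33 (replicate 5, a male, and replicate 6, a female). The ΔJ mice were 5 at P30 (3 females and 2 males) and 1 at P33 (replicate 6, a male). None was given an odour or drug treatment by the labels. The arrays form 2 sets by replicate number, 1 to 3 and 4 to 6 of each genotype. In the first set the 75th percentile ran from 8.38 to 8.42 and the SD of an array from 2.07 to 2.13, and in the second from 8.53 to 8.56 and from 2.20 to 2.23. All 3 mice at P33 are in the second set. *Omp* and *Cnga2*, markers of mature OSNs, were not called between genotypes by the test below, with differences of 0.04 (SE 0.05) and 0.06 (SE 0.05) on the log2 scale. The summed signal of the 14 mature OSN markers was lowest in ΔJ replicate 5 (6.86 on the log2 scale, against 7.09 to 7.16 in the wild-type mice). That mouse was also lowest for *Fosb*. The markers did not fall as a whole in it. *Gnal*, *Ano2*, *Cnga4*, *Cngb1*, *Stoml3*, *Ric8b*, *Kcnmb3* and *Slc24a4* were at their lowest there. *Omp* (3.98), *Cnga2*, *Adcy3*, *Rtp1* and *Rtp2* lay within the range of the other mice, and *Gng13* (2.46) was at its highest. In whole tissue, fewer OSNs and less RNA per OSN cannot be told apart.

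The stretches of 250 bases before the RefSeq start (GRCm38.p6) are shown for 3 genes, since *Fos* and *Nr4a1* were above all 10 other mice in the same 2 mice. *S100a5*, which was not, is shown beside them. Capitals mark matches to letters searched on both strands, so that a match on the other strand appears as the reverse complement. They are the CRE core (TGACG), which a full CRE (TGACGTCA) holds, and the EGR site (GCGGGGGCG or GCGTGGGCG). The TATA element was searched as TATAAA. The E-box was searched as CAGCTG. The AP-1 letters TGACTCA or TGAGTCA and the CArG box were searched too.
Fos, chr12:85473640-85473889, plus strand: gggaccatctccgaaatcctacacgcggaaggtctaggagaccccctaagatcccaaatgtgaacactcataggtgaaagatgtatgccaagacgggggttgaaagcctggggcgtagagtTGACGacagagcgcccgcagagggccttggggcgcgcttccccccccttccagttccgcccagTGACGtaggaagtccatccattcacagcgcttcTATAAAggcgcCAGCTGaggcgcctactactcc
Nr4a1, chr15:101266596-101266845, plus strand: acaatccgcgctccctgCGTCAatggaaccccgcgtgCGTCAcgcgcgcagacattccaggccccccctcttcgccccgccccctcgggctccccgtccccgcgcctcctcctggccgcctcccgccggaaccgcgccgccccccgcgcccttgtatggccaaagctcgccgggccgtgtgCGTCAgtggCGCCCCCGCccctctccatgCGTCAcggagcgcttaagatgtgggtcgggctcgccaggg
S100a5, chr3:90608272-90608521, plus strand: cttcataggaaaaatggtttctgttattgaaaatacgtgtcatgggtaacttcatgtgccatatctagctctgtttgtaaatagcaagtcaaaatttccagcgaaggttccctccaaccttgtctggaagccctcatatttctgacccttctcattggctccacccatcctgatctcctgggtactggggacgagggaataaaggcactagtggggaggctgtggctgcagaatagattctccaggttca
The CRE core occurred 2 times in the window of *Fos* and 4 times in that of *Nr4a1*, and 17.8% of all 32851 mouse promoters of this table held it. In *Fos* the letters lay 129 to 125 and 66 to 62 bases before the start, with TATAAA at 33 to 28 and the E-box at 22 to 17. *Nr4a1* also held an EGR site, as did *Fosb* (chr7:19310046-19310295, minus strand), against 3.06% of all promoters. *Fosb* and *Junb* (chr8:84978749-84978998, minus strand) held 1 CRE core each, and *Junb* also an E-box. The shares of all promoters with TATAAA and with the E-box were 12.4% and 13.0%. None of these letters was found in the window of *S100a5*, and no full CRE (1.55% of all promoters), AP-1 site (4.46%) or CArG box (1.47%) in any of the 5 members matched to the table. These are matches of letters only, and binding was not measured.

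None of the 7 genes was called different between ΔJ and wild-type mice. The groups overlapped for all 7, and limma fitted across all probe sets with genotype as the only term gave Benjamini-Hochberg adjusted p-values of 0.993 to 0.999 (0 of 7 at an unadjusted p under 0.05). Over all 35556 probe sets 0.135% were called at an adjusted p under 0.05, 2.16% were lower in ΔJ and 1.18% higher at an unadjusted p under 0.05, and in 0.301% the groups did not overlap. The intervals, from this fit without replicate or array set as a term, bound what a difference could be. The signal of *S100a5* in ΔJ mice was 99.9% of wild-type (95% interval 88.7 to 113%) and that of *Arc* 98.5% (88.8 to 109%). *Junb* stood at 102% (89.7 to 116%). The intervals were wider for *Fos* at 84.0% (64.0 to 110.4%), *Egr1* at 83.5% (58.2 to 119.7%), *Nr4a1* at 82.0% (66.3 to 101%) and *Fosb* at 84.9% (71.2 to 101%). With the replicate number as a block in limma, *Fosb* had an unadjusted p of 0.036 and an adjusted p of 0.618.

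**Figure D1:**
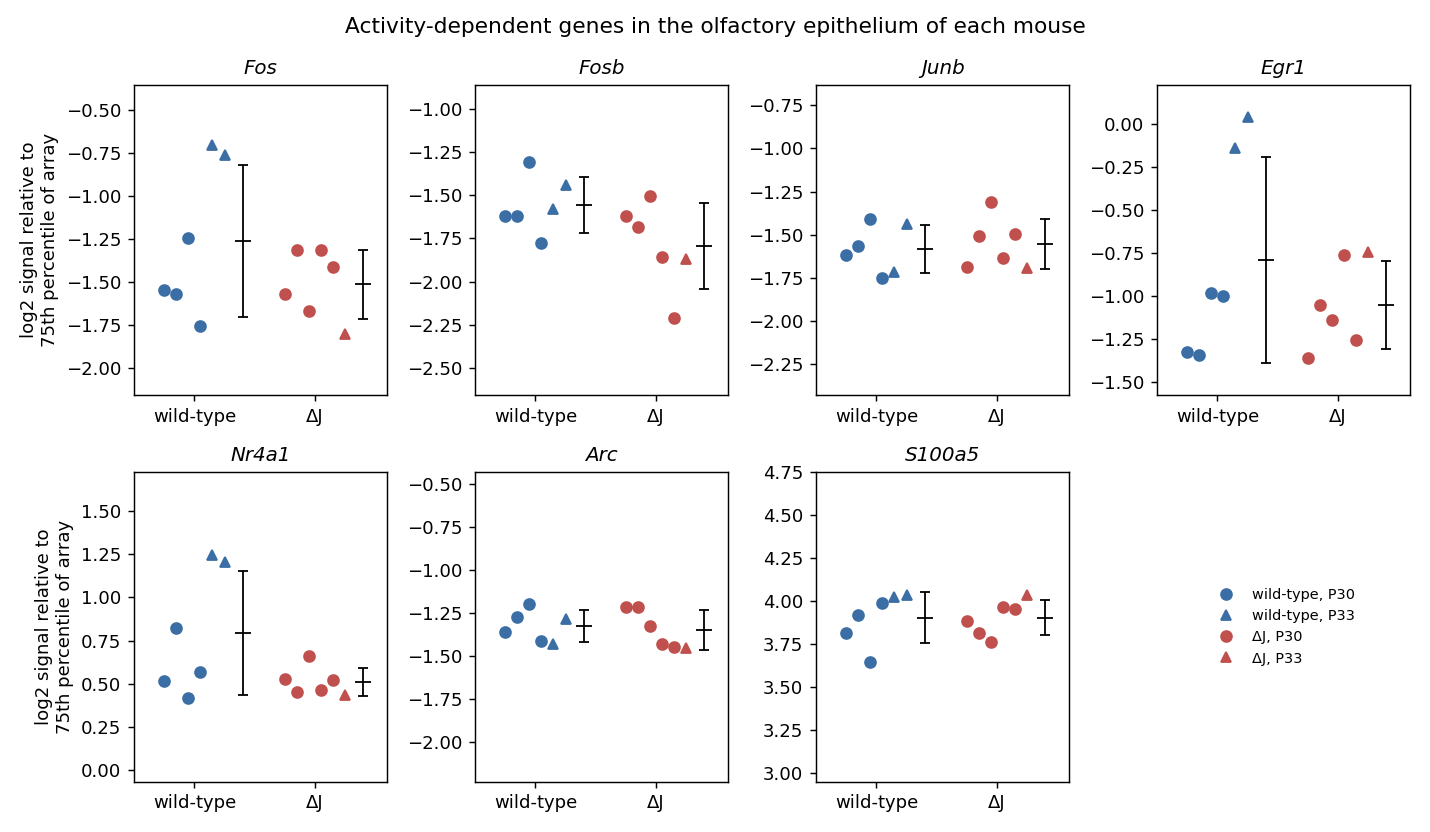
Level of each of the 7 genes (log2 signal relative to the 75th percentile of the array) in each wild-type and ΔJ mouse, in the order of the replicate numbers; circles are mice at P30, triangles mice at P33, and the bar is the mean ± SD of 6 mice. All panels span the same range of log2 units. The 2 wild-type mice at P33 lie above the other 10 mice for *Fos*, *Egr1* and *Nr4a1*.

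Among the AP-1 subunits, *Fos* read -1.54, -1.57, -1.24, -1.75, -0.71 and -0.76 in wild-type replicates 1 to 6. In ΔJ replicates 1 to 6 it read -1.57, -1.31, -1.67, -1.31, -1.41 and -1.80. Wild-type replicates 5 and 6, the 2 at P33, were the highest of all 12 mice, while the ΔJ mouse at P33, replicate 6, was the lowest. The genotype difference was -0.25 (SE 0.18, n = 6 and 6) with all mice and 0.07 (SE 0.12) among the 9 mice at P30. *Fosb*, whose protein can replace FOS in AP-1, ranged from -1.78 to -1.30 (median -1.60) in wild-type and from -2.21 to -1.50 (median -1.77) in ΔJ mice, a difference of -0.24 (SE 0.12, adjusted p = 0.993). It was lowest in ΔJ replicate 5 and did not set the wild-type P33 mice apart, which read between the wild-type extremes. *Junb*, the partner of both in AP-1, varied by 1.36-fold over the 12 mice and lay between -1.75 and -1.41 in wild-type and between -1.69 and -1.31 in ΔJ mice.

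*Egr1* varied most of the 7 between mice, 2.64-fold from the lowest to the highest. Wild-type replicates 1 to 6 read -1.32, -1.34, -0.98, -0.995, -0.14 and 0.04. The ΔJ mice read -1.36, -1.05, -1.14, -0.76, -1.26 and -0.74. Both wild-type P33 mice were above all others, and the ΔJ P33 mouse came next, just above ΔJ replicate 4. Over all mice the genotype difference was -0.26 (SE 0.24), and at P30 it was 0.05 (SE 0.14). *Nr4a1*, a nuclear receptor that acts without a known physiological hormone, read 0.52, 0.82, 0.42, 0.57, 1.25 and 1.20 in wild-type replicates 1 to 6. It read 0.53, 0.45, 0.66, 0.46, 0.52 and 0.43 in the ΔJ mice, where the SD was 0.08 against 0.36 in wild-type. The difference of -0.29 (SE 0.14) was -0.06 (SE 0.09) at P30. No test of the difference in spread was made.

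*Arc* and *S100a5* were the steadiest of the 7 genes. *Arc* varied by 1.20-fold over the 12 mice, from -1.43 to -1.20 in wild-type (median -1.32) and from -1.46 to -1.21 in ΔJ mice (median -1.38). *S100a5* varied by 1.31-fold. It read 3.81, 3.92, 3.65, 3.99, 4.02 and 4.04 in wild-type replicates 1 to 6, and 3.89, 3.81, 3.76, 3.97, 3.95 and 4.04 in the ΔJ mice. The genotypes covered nearly the same range, with a difference of -0.0011 (SE 0.08). In both genotypes replicates 4 to 6, the second array set, were above replicates 1 to 3. The 3 mice at P33 were the highest of all 12. The wild-type mice at P33 exceeded those at P30 by 1.14-fold (n = 2 and 4), but replicates 1 to 3 of the latter are in the first set. With genotype and array set as terms in limma, the age difference was 0.06 (SE 0.07, adjusted p = 0.725).

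**Figure D2:**
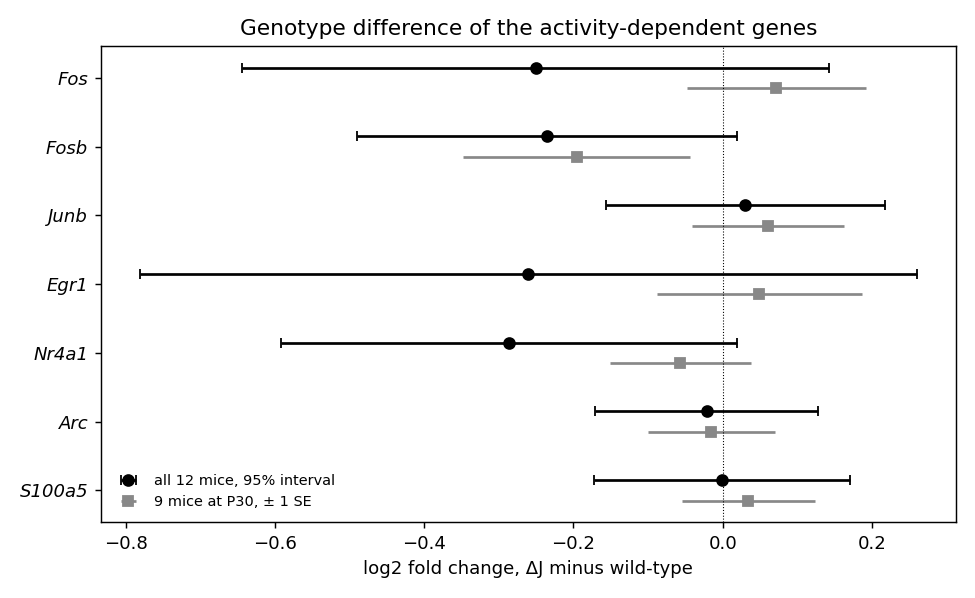
Log2 fold change (ΔJ minus wild-type) of the 7 genes; black circles are the fit over all 12 mice with its 95% interval, grey squares the fit over the 9 mice at P30 with ± 1 SE. All 7 intervals, from the fit with genotype as the only term, include 0. The estimates of *Fos*, *Egr1* and *Nr4a1* move from -0.25, -0.26 and -0.29 to 0.07, 0.05 and -0.06.

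The wild-type mice at P33 exceeded those at P30 by 1.73-fold in *Fos*, 2.16-fold in *Egr1* and 1.56-fold in *Nr4a1* (n = 2 and 4). Replicates 1 to 3 of the latter are in the first array set. Replicate 4, in the second set with the P33 mice, read -1.75, -0.995 and 0.57 for these genes. For these 3 of the 7 genes both wild-type P33 mice lay above all 10 other mice, which was the case for 2.87% of all probe sets (3.33% lay below). This comparison was chosen after the levels were seen and is a description. With age as a term beside genotype and array set, limma called 0 of the 7 genes (0.00562% of all probe sets). The difference of *Egr1*, 0.67 higher at P33 (SE 0.20), was the only one at an unadjusted p under 0.05, and its adjusted p was 0.214 in limma. Of all probe sets 8.16% were higher at P33 by that unadjusted measure. In a fit added after the levels were seen, the genotype difference at P33 minus that at P30 was -1.15 (SE 0.24) for *Fos*, -0.74 (SE 0.18) for *Nr4a1* and -0.71 (SE 0.25) for *Egr1*, with adjusted p-values in limma of 0.519, 0.532 and 0.852, and 0 of all probe sets passed. It rests on 1 ΔJ mouse at P33.

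Of 53 other immediate early genes measured, listed by name, 8 were higher in both wild-type P33 mice than in the other 10, against 2.87% of all probe sets, 0 were lower in both (3.33% of all) and 45 were neither. *Dusp1*, a phosphatase that switches off MAP kinases, read 3.35 and 3.31 in these mice and 2.04 to 2.89 in the others (1.62-fold by the means). *Zfp36*, which encodes an RNA-binding protein that shortens the life of early transcripts, was 1.56-fold higher by the same measure, with the ΔJ P33 mouse highest of the other 10 at -0.64. *Nr4a2*, the closest relative of *Nr4a1*, was 1.42-fold higher, and *Sik1*, a kinase that restrains CREB coactivators, 1.32-fold. The ΔJ P33 mouse was the lowest of all 12 for *Sik1* at -0.40, as it was for *Fos*, but ΔJ replicate 5, at P30, read nearly the same for *Sik1* (-0.39). *Egr4*, *Klf2*, *Dusp5* and *Socs3* were the remaining 4, at 1.29-, 1.17-, 1.12- and 1.11-fold. The other 10 mice include all 6 of the first array set, so age and array set are mixed in these folds. *Zfp36* and *Egr4* were 0.64 and 0.29 higher in the second set (SE 0.08 and 0.06). Within that set *Zfp36* read -0.42 and -0.39 in the wild-type P33 mice and -0.88 to -0.64 in the others. These genes are named for this pattern, after their values were seen.

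Of 11 measured clock transcripts in the circadian list, 1 was called different between the mice at P33 and those at P30. *Nr1d1*, which encodes a clock repressor whose transcript oscillates over the day, read 2.56, 2.91 and 2.84 in wild-type replicates 5 and 6 and ΔJ replicate 6, and 0.68 to 1.31 in the 9 mice at P30. With no overlap between ages, its difference of 1.70 (SE 0.17) was the only one in the 13 gene lists to pass (adjusted p = 0.0160 in limma). The circadian list did not move as a whole. At an unadjusted p under 0.05, 3 of its 11 genes were higher at P33 (8.16% of all probe sets) and 3 lower. *Per3* (-0.52, -0.49 and -0.56) and *Cry1* (-0.33, -0.40 and -0.31) were lowest in the 3 mice at P33, against at least -0.44 and -0.14 at P30. *Hlf* read 0.98, 0.91 and 0.98, against at most 0.95. *Per2*, *Dbp*, *Nr1d2*, *Tef*, *Ciart*, *Arntl* and *Clock* lay within the P30 range. *Fkbp5* and *Tsc22d3*, both induced by glucocorticoids, were lowest in the 3 mice at P33, at -0.96, -0.88 and -0.88 and at -1.75, -1.61 and -2.24, against at least -0.65 and -1.08 at P30. Both were picked from the 13 measured genes of the heat shock and handling list. Of that list, *Mt2* was highest in the same 3 mice, at 3.83, 4.02 and 3.80 against at most 3.78 at P30. *Sgk1* read 0.25 and 0.22 in the wild-type P33 mice, within the range of the P30 mice (0.06 to 0.58). In the ΔJ P33 mouse it was the lowest of all 12, at -0.24. *Nr1d1*, *Per3*, *Cry1*, *Fkbp5*, *Tsc22d3* and *Mt2* set all 3 mice at P33 apart, whereas *Fos* and *Nr4a1* did so only in the 2 wild-type mice. The share of all probe sets that set these 3 mice apart was not counted. Of 8 immature OSN markers, 4 (*Gap43*, *Tubb3*, *Dpysl3* and *Hdac2*) were lower in both wild-type P33 mice than in the others, against 3.33% of all probe sets. None was higher in both and 4 were neither, so the list did not move as a whole. Among those 4, *Gng8* and *Nhlh1* went the other way, at 0.80 and 0.95 and at 1.27 and 1.37. The ΔJ P33 mouse was the highest of all 12 for both, at 1.10 and 1.49. The summed mature OSN markers averaged 7.15 in them, beside 6.86 to 7.18 over all 12 mice, and the immune markers 2.97, beside 2.46 to 3.30. The hour of dissection is not given in the sources used here, and the part of these transcripts in the levels of *Fos*, *Egr1* and *Nr4a1* was not tested.

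**Figure D3:**
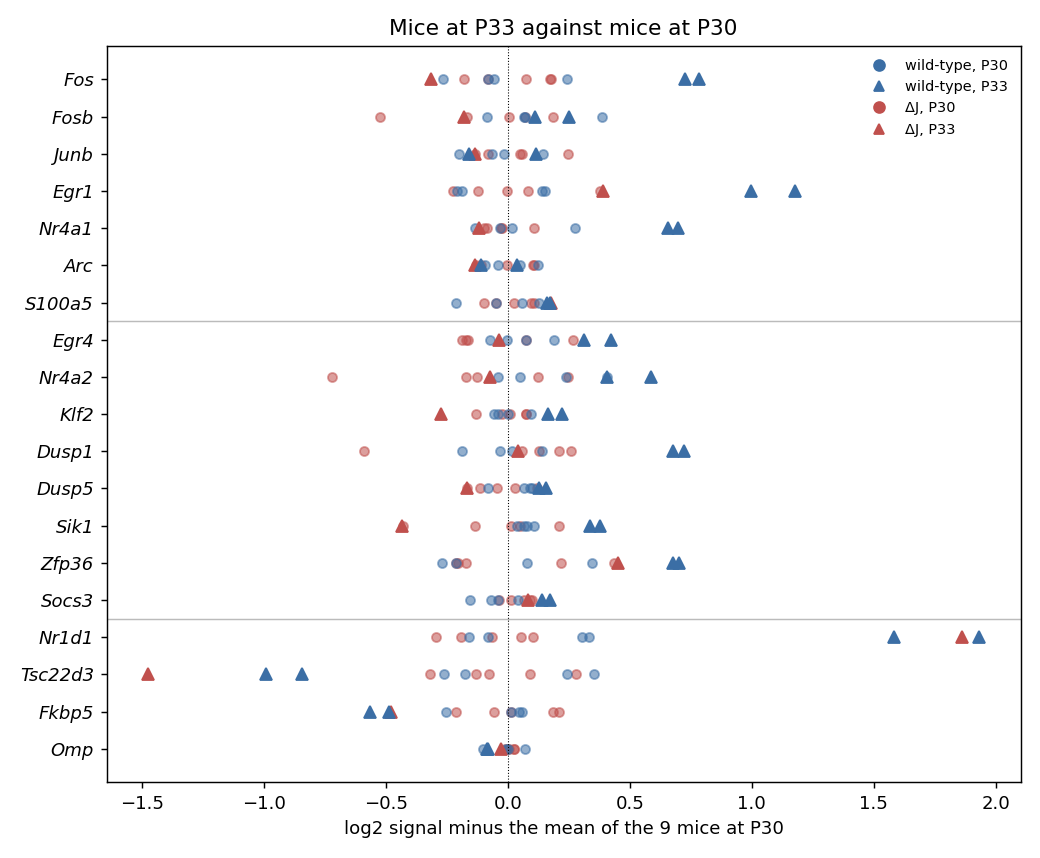
Log2 signal of each mouse minus the mean of the 9 mice at P30, for the 7 genes (top), the 8 other immediate early genes that were higher in both wild-type P33 mice than in all others (middle), and *Nr1d1*, *Tsc22d3*, *Fkbp5* and *Omp* (bottom). The middle and bottom rows were picked after their values were seen. The ΔJ P33 mouse (red triangle) joins the wild-type P33 mice (blue triangles) for *Nr1d1*, *Tsc22d3* and *Fkbp5* but not for *Fos* or *Nr4a1*.

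Between the array sets 3 of the 7 genes differed, by limma with genotype as the other term. *Egr1* was 0.56 higher in the second set (SE 0.19, adjusted p = 0.0318 in limma) and *S100a5* 0.19 higher (SE 0.05, adjusted p = 0.0107). *Arc* was 0.15 lower (SE 0.05, adjusted p = 0.0297). For *S100a5* the 6 arrays of the second set ran from 3.95 to 4.04 and those of the first from 3.65 to 3.92, with no overlap. Such differences were common, since 10.4% of all probe sets were higher and 31.8% lower in the second set, and the median of all probe sets was -0.10. Relative to that median, the differences of *Egr1*, *S100a5* and *Arc* were 0.65, 0.29 and -0.05. For *Arc*, on the deposited values, without the percentile shift, the difference was -0.0064 (adjusted p = 0.925). *Egr1* did not pass among the 9 mice at P30 (0.19, adjusted p = 0.292) and *S100a5* did not there either (0.16, adjusted p = 0.115), while *Fosb* did, 0.37 lower in the second set (adjusted p = 0.0315 in limma). The call of *Arc* was lost without any 1 of ΔJ replicates 1, 2, 4 and 6 and wild-type replicates 3, 4 and 5, with adjusted p-values of 0.0546 to 0.0704 and differences of -0.14 to -0.13. That of *Egr1* was lost without any 1 of ΔJ replicates 1, 4 and 6 and wild-type replicates 1, 2, 5 and 6, with differences of 0.43 to 0.55. *S100a5* kept its call without each mouse in turn.

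The genotype difference itself did not pass as different between the array sets for any of the 7 (0 of 7, also at an unadjusted p under 0.05, and 0% of all probe sets). Within the first set it was -0.07, 0.03 and -0.04 for *Fos*, *Egr1* and *Nr4a1*, and within the second -0.44, -0.55 and -0.53, where the wild-type P33 mice are. No gene passed between the sexes (0 of 7, also at an unadjusted p under 0.05, and 0.0141% of all probe sets). The largest sex difference was 0.27 (SE 0.19) for *Egr1*, higher in males.

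The levels of *Fos*, *Egr1* and *Nr4a1* varied together over the 12 mice, and this rested on the 2 wild-type mice at P33. Pearson's r was 0.771 for *Fos* and *Egr1* (Spearman's rho 0.434), 0.734 for *Fos* and *Nr4a1* (rho 0.154) and 0.720 for *Egr1* and *Nr4a1* (rho 0.042). The permutation p-values of r were 0.0080, 0.013 and 0.017 and of rho 0.161, 0.637 and 0.905. The adjusted permutation p was 0.0889 for each of these r, and 0 of the 21 pairs passed (6 by the unadjusted permutation p of r). Without wild-type replicates 5 and 6, r became 0.016, -0.353 and -0.557. Within the first array set r was 0.726, -0.695 and -0.549 and within the second 0.806, 0.907 and 0.876 (n = 6 each). The r of *Nr4a1* with both others was positive in the set that holds the P33 mice and negative in the other.

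When genotype and array set were removed from each gene first, *Fosb* and *Egr1* rose and fell together (r = 0.860, rho = 0.790, permutation p = 3e-04 for r and 0.0036 for rho, adjusted p = 0.0063 for r and 0.0559 for rho over 21 pairs). So did *Fos* and *Egr1* (r = 0.762, rho = 0.762, permutation p = 0.0040 and 0.0053, adjusted p = 0.0421 for r and 0.0559 for rho). The permutation treated the 12 residuals as freely exchangeable, although the fit of genotype and array set ties them to each other. These p-values can therefore be too small. Leaving out the 2 mice farthest from the median of the first gene gave r = 0.796 and 0.620, with wild-type replicate 6 kept in both. Among the 9 mice at P30 the residuals gave 0.819 and 0.734, while the levels gave 0.0097 and 0.409. These residuals come from a fit over all 12 mice, so the values of the P33 mice also shape those of the P30 mice. The r at P30 is therefore not free of the P33 mice. All 15 pairs among the 6 immediate early genes had a positive r on these residuals, and 12 of 15 on the levels. *S100a5* had r between -0.645 and 0.528 with the others on the levels, with 0 pairs past an adjusted p of 0.05.

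**Figure D4:**
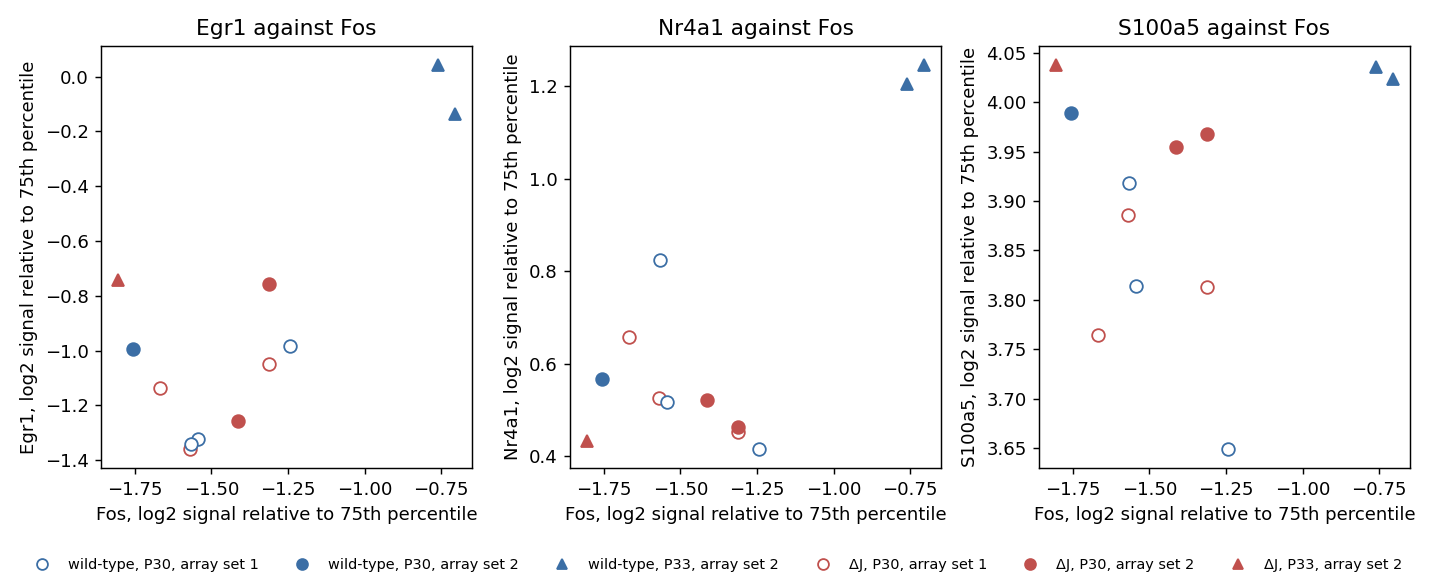
Levels (log2 signal relative to the 75th percentile of the array) of *Egr1*, *Nr4a1* and *S100a5* against *Fos* in each of 12 mice; open symbols are the first array set and filled symbols the second, triangles are mice at P33. The 2 wild-type P33 mice lie alone at the upper right for *Egr1* and *Nr4a1*, and without them r is 0.016 and -0.353.

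The genes whose residuals over the 12 mice were most like the mean of the 6 immediate early genes were *Mir130b*, *Xrra1*, *Gpbar1*, *Gm5486* and *Acot3*, with r of 0.917 to 0.956 among 21782 probe sets compared. The mean levels of *Gm5486* (-5.08) and *Acot3* (-3.48) lie below the highest female reading of the Y-linked *Kdm5d* (-3.05), a gauge of background, and *Mir130b* (-3.01) and *Xrra1* (-2.90) lie close to it. The part of background in these ranks was not tested. For *S100a5* they were *Spef2*, *Nars2*, *Nipal2*, *Cptp* and *Mcl1*, with r of 0.898 to 0.935. With the levels in place of the residuals, 2 of the first 5 and 0 of the second 5 stayed among the nearest 5. Of 13 other activity-linked OSN genes, the median r with *S100a5* was 0.51 (*Pcdh10* 0.81, *Pcp4l1* 0.63, *Rasgrp4* 0.59, *Kirrel2* 0.58), beside -0.13 over all probe sets compared, and *Efna5* stood at -0.90. The same list had a median r of 0.18 with the immediate early genes, beside 0.10 over all. Other immediate early transcription factors had a median r of 0.16 with them, and effectors and feedback inhibitors 0.42. All these values share the same 12 arrays and are descriptions.

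No gene of the lists around these 7 was called between the genotypes either. Among 26 other transcription factors of the immediate early class the median log2 fold change was -0.07, among 27 effectors and feedback inhibitors -0.04, among 13 activity-linked OSN genes -0.09 and among 18 genes of signalling to them -0.03, beside -0.03 over all probe sets. Of the 53 genes of the first 2 lists, 0 passed an adjusted p of 0.05 in limma, 3 were lower in ΔJ mice at an unadjusted p under 0.05 (5.66%, against 2.16% of all probe sets) and 1 was higher. *Per1*, both a clock gene and an immediate early gene that answers to CREB, read 0.50 to 0.90 in ΔJ and 0.99 to 1.27 in wild-type mice, with no overlap (difference -0.35, SE 0.08, adjusted p = 0.415 in limma). At P30 alone the difference was -0.33. *Nr4a2* (-0.39, SE 0.16) and *Sik1* (-0.29, SE 0.12) had adjusted p-values of 0.993, and at P30 their differences were -0.29 and -0.13. *Dusp6*, a phosphatase of ERK, was the gene on the higher side (0.16, SE 0.07, adjusted p = 0.993 in limma).

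*Elk1*, a factor that ERK activates at serum response elements, differed by -0.23 (SE 0.10), and of the upstream genes *Creb1* and *Crebbp*, the CREB factor and its coactivator, differed by -0.0019 (SE 0.08) and -0.09 (SE 0.10). Among the first genes listed by name, *Fosl1* and *Fosl2*, FOS relatives, differed by -0.08 (SE 0.09) and -0.08 (SE 0.11). *Btg2*, an antiproliferative early gene, differed by -0.08 (SE 0.09) and *Dusp1* by -0.21 (SE 0.18). *Kirrel2*, an adhesion molecule of OSN axons whose level depends on receptor activity, read 2.62 to 3.70 in ΔJ and 3.14 to 3.90 in wild-type mice (-0.25, SE 0.18), lowest in ΔJ replicate 5. *Pcp4l1* differed by -0.04 (SE 0.09). Of the cell type, stress and clock lists, 1 gene was at an unadjusted p under 0.05, the immature neuron tubulin *Tubb3* (0.26, SE 0.11, adjusted p = 0.993 in limma), and the medians ran from -0.05 for the heat shock and handling list to 0.09 for the immune list.

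**Figure D5:**
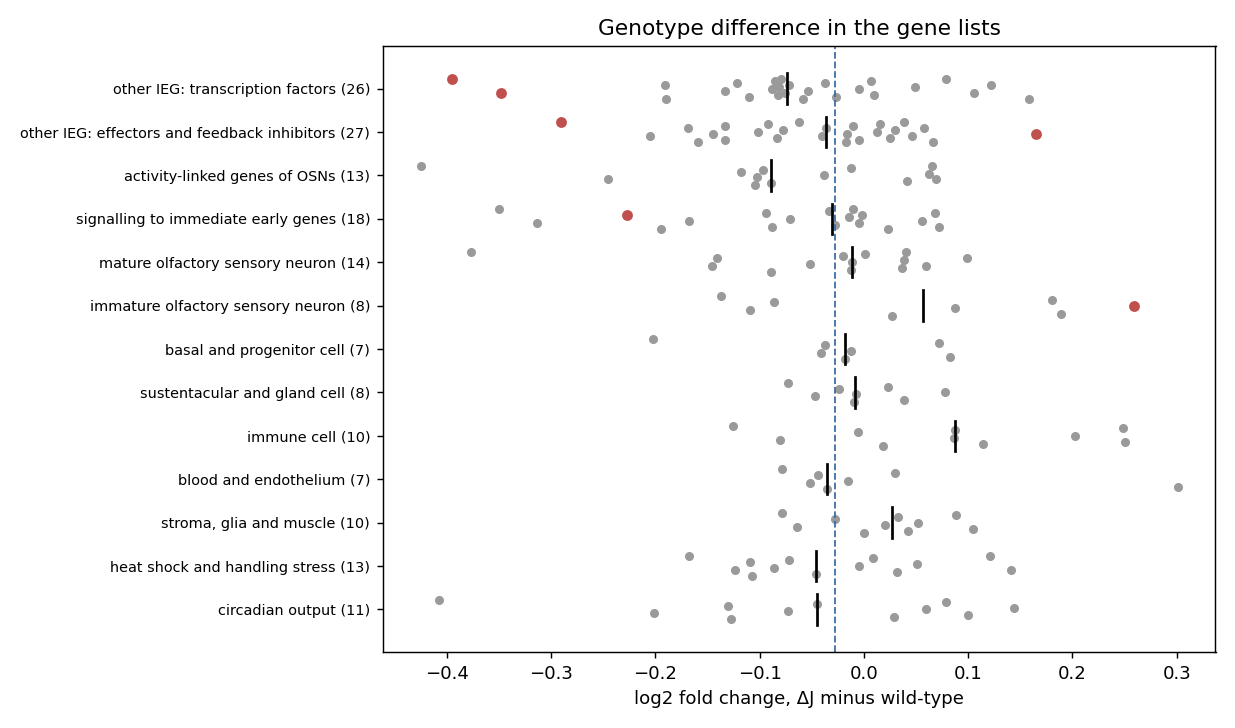
Log2 fold change (ΔJ minus wild-type) of each measured gene of 13 lists, with the number measured in parentheses (IEG, immediate early genes; OSN, olfactory sensory neuron); the black bar is the median of a list and the dashed line that of all probe sets (-0.03). The 6 genes at an unadjusted p under 0.05 are red, and 0 genes passed after adjustment.

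Between the array sets genes of the lists differed in both directions, as did probe sets in general. Of all probe sets 10.4% were higher and 31.8% lower in the second set at an adjusted p under 0.05 in limma. Of the 26 other early transcription factors, 5 were higher and 2 lower by that measure, and of the 27 effectors 4 and 6. *Zfp36* was higher by 0.64 (SE 0.08), *Ier5* by 0.34 (SE 0.07), *Fosl2* by 0.33 (SE 0.06) and *Egr4* by 0.29 (SE 0.06). *Vgf*, which encodes a secreted neuropeptide precursor, was 0.48 lower (SE 0.05) and *Errfi1*, an inhibitor of the EGF receptor, 0.38 lower (SE 0.06), and both remained lower without the shift (-0.34 and -0.24). Of the 13 activity-linked OSN genes 0 were higher and 3 lower in the second set. These were *Pcdh10* by 0.33 (SE 0.11), *Slc17a6* by 0.29 (SE 0.08) and *Nrp1* by 0.19 (SE 0.07), all 3 uncalled without the shift. In each of these lists the share lower was below that of all probe sets. *S100a5*, of the same kind, was higher in that set.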

How the data were processed

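RNA of the main olfactory epithelium of 6 ΔJ and 6 wild-type mice was measured on 12 arrays. The log2 signals deposited by the authors cover 35556 probe sets. They were made with Affymetrix Expression Console according to the submitters' processing notes. The sources used here do not give the version, the background correction or how probes were combined. A 75th percentile shift, named in the methods with GeneSpring GX, was applied here to the deposited log2 values.

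Names came from the platform annotation (21789 with 1 symbol, 1621 with several, 12146 with none). All probe sets entered 1 fit per comparison in limma 3.58.1 (lmFit, then eBayes; R 4.3.3), and p-values were adjusted (Benjamini-Hochberg) over all of them. A gene of the lists is represented by its single-symbol probe set of highest mean. Over mice, 100000 permutations of the pairings gave two-sided p-values with SciPy 1.17.1. Genes were named by rule: the 7 genes, the first 2 of each list (given for the 5 lists nearest to them), every list gene at an unadjusted p under 0.05, the 3 with the smallest p between array sets in 3 lists, and the 5 most alike. Other genes were named after their values were seen. The 7 genes, the lists and the rule were chosen with earlier results of these data known. Settings compared were the replicate block, array set, sex and age as terms, each array set alone, P30 mice only, other scalings, a filter on low signal and each mouse left out.

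Same-numbered ΔJ and wild-type mice deviated together from their genotype means (correlations 0.365, 0.294, 0.419, 0.441, 0.185 and 0.385 for replicates 1 to 6). The numbers come from the labels. Neither the labels nor the paper say which mice share a litter. The steps were tested on simulated data. The number of arrays limits the precision. To gauge the background, the probe set of the Y-linked *Kdm5d* averaged -3.72 in the 7 females (highest -3.05), and the lowest of the 84 values of the 7 genes was -2.21.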

Additional observations from a re-analysis of the deposited data

How the results depend on the processing

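The count of 0 of 7 genes called between the genotypes, and of 0 genes of the lists, held under all 11 other settings and without each mouse in turn. The replicate block, which pairs the mice of the same number, changed no call: *Fosb* had an adjusted p of 0.618 in place of 0.993, and the counts stayed at 0. Some uncalled estimates changed sign, among them those of *Egr1*, *Fos*, *Kirrel2* and *Dusp1*, with -0.26, -0.25, -0.25 and -0.21 over all mice. In the first array set alone the differences became 0.034 (*Egr1*), 0.026 (*Arc*), 0.027 (*S100a5*), 0.0034 (*Btg2*), 0.16 (*Dusp1*), 0.086 (*Kirrel2*), 0.11 (*Pcp4l1*), 0.069 (*Creb1*) and 0.028 (*Crebbp*). Among P30 mice they became 0.072 (*Fos*), 0.049 (*Egr1*), 0.034 (*S100a5*), 0.029 (*Dusp1*) and 0.018 (*Pcp4l1*). *S100a5* became 0.0055 with sex as a term, 0.028 with age, 0.011 without the shift, 0.0029 after quantile normalization and 0.041 after median centring. *Arc* became 0.0086 and 0.021 under the last 2, *Creb1* 0.010 without the shift and 0.040 after median centring, and *Pcp4l1* 0.0039 after median centring. Leaving out 1 mouse gave -0.049 to 0.0043 for *Arc*, -0.042 to 0.030 for *Creb1*, -0.019 to 0.065 for *Junb*, -0.11 to 0.0059 for *Pcp4l1* and -0.052 to 0.027 for *S100a5*. The count of 3 genes that differed between the array sets was 1 among P30 mice and 1 to 3 without 1 mouse. That difference became 0.036 for *Junb* without the shift, and -0.023 and -0.038 for *Fos* and *Nr4a1* among P30 mice. The sex difference of *Nr4a1* was -0.017 with genotype as the only other term. Of the 21 pairs, 2 passed on residuals, where the permutation p-values can be too small, against 0 on levels. The genes most like the immediate early genes and *S100a5* shared 2 and 0 of 5 when levels were used. The causes were not tested.

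With 6 mice of each genotype the 95% intervals of *Fos* and *Egr1* include a loss to 64.0% and 58.2% of wild-type signal. Age, array set and replicate number overlap, since all 3 mice at P33 are in the second set and only 1 of them is ΔJ. Whole tissue was measured, so a change in few OSNs would be diluted. Litter and hour of dissection could not be used.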

Other observations

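Outside the gene lists, the single-symbol probe sets that most exceeded the other 10 mice in both wild-type mice at P33 were *Pigr* (1.57 and 2.80, against 0.47 to 1.33), *Olfr570* (-1.49 and -1.36, against -3.23 to -1.54), *Azgp1* (1.16 and 1.296, against -0.53 to 1.05) and *Glycam1* (-3.00 and -2.003, against -3.67 to -3.03). *Pigr* encodes the receptor that carries polymeric antibodies across secretory epithelia. *Olfr570* is a class I OR gene and the other 10 mice include all 6 ΔJ mice, so genotype and age are mixed in its rank. In wild-type replicate 5 *Glycam1* read close to the highest female value of *Kdm5d* (-3.05). *Rasgrp4*, of the activity-linked list, was the fifth at 0.95 and 1.02 against -0.75 to 0.86, where the ΔJ mouse at P33 was the highest of the other 10. No cause was tested.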
